A study of Mus musculus with 12 samples.

Results

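The serpin genes, which encode a family of protease inhibitors, were taken from the array by name: each probe that is no control and whose gene symbol reads Serpin followed by a clade letter from a to i and a number. This gave 54 genes among 28781 names on the array, through 73 of 41174 probes. All 73 carried such a name in the array design, and 63 were also reached through the RefSeq accession of the probe. Agt, which is clade A member 8 by descent but goes by another name, was not a member, and neither Serpina1a nor Serpina1c was found by name.

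Serpins share one fold, and most inhibit by the same step: the target protease cuts an exposed loop of the serpin and is trapped in a covalent complex. The liver makes most of the serpins of blood plasma, among them the inhibitors that restrain neutrophil elastase, clotting, fibrinolysis and complement, while clade B members mostly act inside cells. A few members have lost the inhibitory activity and carry hormones or assist protein folding, and several liver serpins are known as targets of glucocorticoids or of inflammatory signals.

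The arrays measured RNA from the liver of male C57BL/6 mice, 3 months old, in which the glucocorticoid receptor gene (Nr3c1) was knocked out in the liver, so that all 3 groups carried the knockout. One group received an adeno-associated virus carrying the human glucocorticoid receptor beta isoform (AAV-hGRB), a second the same kind of virus carrying green fluorescent protein (AAV-GFP), and the third the vehicle PBS, with 4 arrays in each. The series asked which transcripts the human beta isoform changes without the mouse receptor. The labels number the samples without saying that each came from a separate animal, so the p-values below measure the spread between these samples. The labels name neither the Cre line nor the deleted exons. The 4 Nr3c1 probes were all tested, and the brightest lay between 0.05 and 0.58 on the 12 arrays. It differed by 0.07 between AAV-hGRB and AAV-GFP and is not known to lie in the deleted part, so it checks nothing. The human transcript itself was not analysed here.

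A level in what follows is the log2 of a probe's intensity minus the 75th percentile of its array, and a change is a difference of mean levels. A level is compared between arrays for one probe. Differences between 2 probes of a gene are given only for how they vary from array to array. Hepatocyte markers had mean levels from 7.44 to 7.85 on every array. One array stood apart: AAV-GFP replicate 3 had the lowest median intensity (28.4, against 38.9 to 67.1 on the others), and of all tested probes 23.8% had their lowest level there and 30.1% their highest. Of the 42 tested serpin probes, 16 had their lowest level on this array and 7 their highest. The value without it is given beside each change named below that then turned sign.

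Clades A and B held most of the genes. Of the 54 genes, 35 had a probe that was well above background on at least 4 arrays and was tested, through 42 probes, and 25 were well above background on all 12 arrays. In clade A, whose members are mostly secreted into plasma, 16 of 20 genes were tested and 14 were detected on all 12 arrays. In clade B, 11 of 24 were tested and 4 were detected on all 12 arrays. The single members of clades C, D, G and H and both members of clades E and F were tested, and neither member of clade I was. Serpini1, the neuronal serpin neuroserpin, was well above background on 0 arrays, as were 8 other genes. No serpin spot was saturated on any array.

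The family lies in clusters of neighbouring genes. By the mm7 coordinates of the array design, chromosome 12 held 19 of the 20 clade A genes between positions 101109198 and 101908089, of which 15 were tested. Serpina7 alone of that clade lay on chromosome X. Clade B was split between chromosome 13, with 12 genes of which 8 were tested, and chromosome 1. Paralogs this close in sequence could share a probe's signal. The best ungapped match between probes of different tested serpin genes was 34 of 56 bases (Serpinb8 and Serpinb1c), and between the Serpina1 probes 19 of 58 bases, while the untested Serpinb9g and Serpinb9d matched at 44 of 59. Only probes were compared with each other, and these can lie at different places in their transcripts. Whether a probe also binds the transcript of any paralog, with or without a probe of its own, was not tested.

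The probes below are shown because results described later turn on them. They bind across an exon junction: their 60 bases are spread over 1500 to 2618 bases of genome, so they read spliced transcript. They are given 5′ to 3′ with mm7 positions: Serpine2 at chr1:80011225-80013842 on the minus strand, Serpina1b at chr12:101224607-101226106 on the minus strand and Serping1 at chr2:84609527-84611033 on the minus strand.
Serpine2: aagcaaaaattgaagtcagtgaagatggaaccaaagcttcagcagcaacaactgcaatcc
Serpina1b: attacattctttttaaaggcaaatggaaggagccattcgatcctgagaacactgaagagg
Serping1: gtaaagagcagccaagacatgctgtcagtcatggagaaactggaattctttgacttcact

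In the main comparison, AAV-hGRB against AAV-GFP, no serpin gene passed the test. Of 42 tested serpin probes, 0 were past an adjusted p of 0.05 in limma's moderated test with Benjamini-Hochberg adjustment over 26591 probes, where the background was also 0% (lowest adjusted p of any probe, 0.310). At an unadjusted p under 0.05 there was 1 serpin probe, or 2.38%, against 3.35% of all probes. The median change of the serpin probes was -0.12, with 18 above 0 and 24 below, beside -0.05 for all probes, of which 43.5% were above 0. That median turned to 0.05 under quantile scaling. By clade, the median was 0.02 over 20 probes of clade A and -0.25 over 12 probes of clade B.

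Virus without the receptor, AAV-GFP against PBS, gave 0 of 42 serpin probes past the threshold, with 0% of all probes past it (lowest adjusted p, 0.999). An unadjusted p under 0.05 was reached by 1 serpin probe (2.38%), against 1.68% of all, and groups that do not overlap by 0 serpin probes, against 0.94% of all. The serpin probes split evenly, 21 above 0 and 21 below, with a median of -0.02 (all probes 0.00, with 50.6% above 0). This comparison and the first share the AAV-GFP arrays.

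AAV-hGRB against PBS likewise gave 0 of 42, with 0% of all probes past the threshold (lowest adjusted p of any probe, 0.102; of a serpin probe, 0.895). At an unadjusted p under 0.05 there were 0 serpin probes, against 5.84% of all probes, and 0 had groups that do not overlap, against 4.59%. Below 0 lay 31 of the 42, or 73.8%, beside 57.2% of all probes, and the median was -0.14 beside -0.06. These are probes of neighbouring and related genes on the same 12 arrays, so the share is a description only. The same controls and treated arrays enter the other comparisons.

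**Figure D1:**
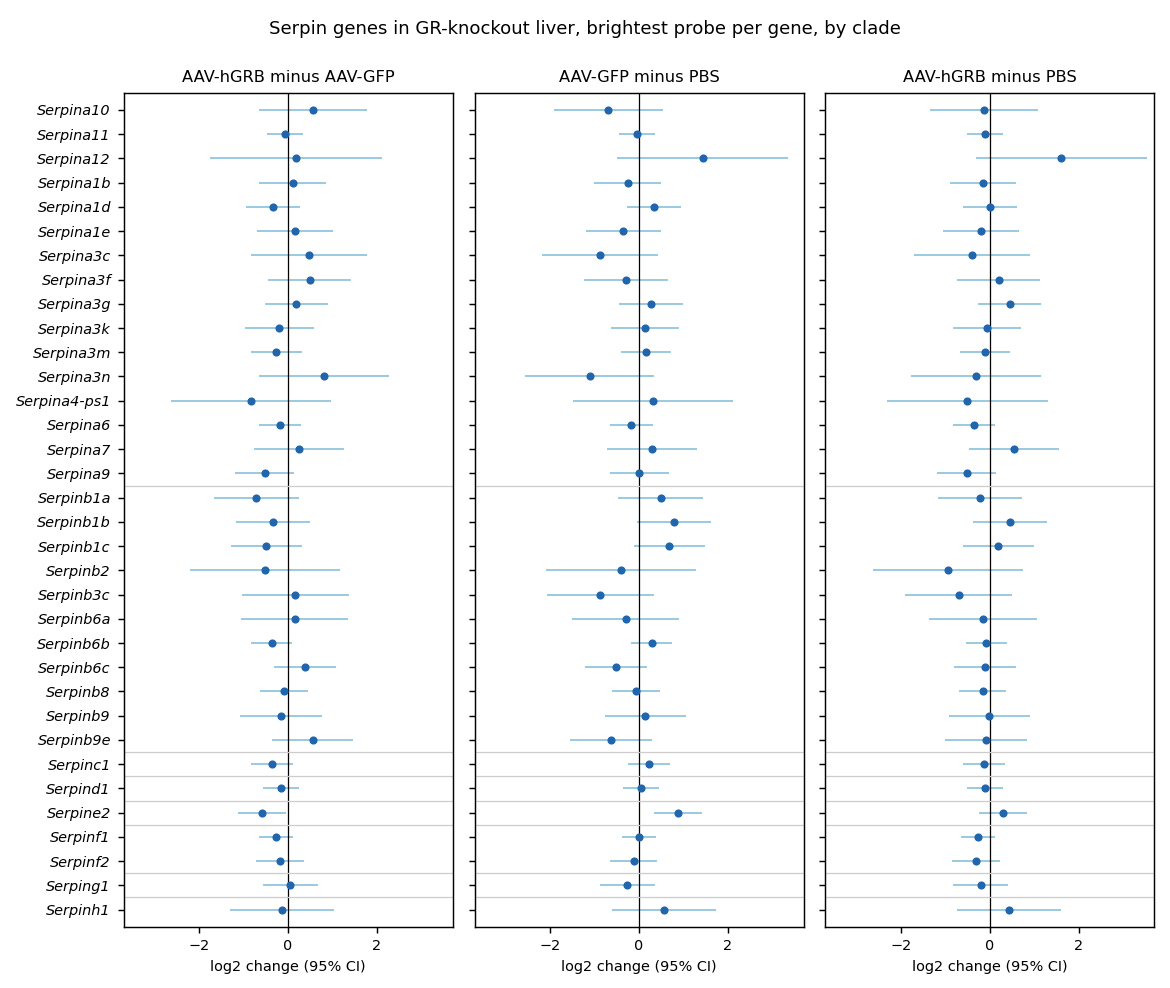
The log2 change (x axis, points) with its 95% confidence interval (bars) for the brightest probe of 34 tested serpin genes, ordered by clade (grey lines divide clades), in the 3 comparisons of the groups, one a panel, n = 4 arrays a group. Intervals are not adjusted for the number of genes; Serpine2 is the gene whose interval leaves 0, in the first and second panels, and Serpina12 and Serpina4-ps1 have the widest intervals shown.

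Serpine2, or protease nexin-1, a thrombin and plasminogen activator inhibitor held at cell surfaces, was the one serpin whose AAV-hGRB and AAV-GFP arrays did not overlap. Its levels were -4.30, -4.47, -4.42 and -4.27 on AAV-hGRB replicates 1 to 4, and -4.04, -3.96, -3.55 and -3.55 on AAV-GFP replicates 1 to 4. On the PBS arrays they were -4.57, -3.98, -5.05 and -5.05, so the control without virus spanned the AAV-hGRB range and its replicate 2 lay within the AAV-GFP range. Groups that do not overlap with AAV-hGRB lower were found for 1.94% of all probes, against 1 of 42 here.

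The Serpine2 change was -0.59 ± 0.25 (SE; 1.50-fold lower; limma adjusted p = 0.998) between the 2 virus groups. Against PBS, the AAV-GFP arrays gave 0.89 ± 0.25 (1.85-fold higher; limma adjusted p = 0.999), and this probe was the one under an unadjusted p of 0.05 in both comparisons. AAV-hGRB against PBS gave a change of the other sign to that against AAV-GFP, 0.30 ± 0.25 (limma adjusted p = 0.954). The signal was dim, well above background on 3 AAV-hGRB, 3 AAV-GFP and 2 PBS arrays, and not on AAV-hGRB replicate 1, AAV-GFP replicate 3 or PBS replicates 3 and 4. With normexp background correction in place of the processed intensity, the first change was 0.03 and the second 0.28. The change was -0.34 and -0.87 within the 2 slides that held both groups, and -0.37 with slide as a fixed block. Each within-slide value is 1 array minus 1 array, and that of -0.87 uses AAV-GFP replicate 3. In a bulk sample such as this, fewer cells of a type and less RNA per cell cannot be told apart, here or for any gene below.

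**Figure D2:**
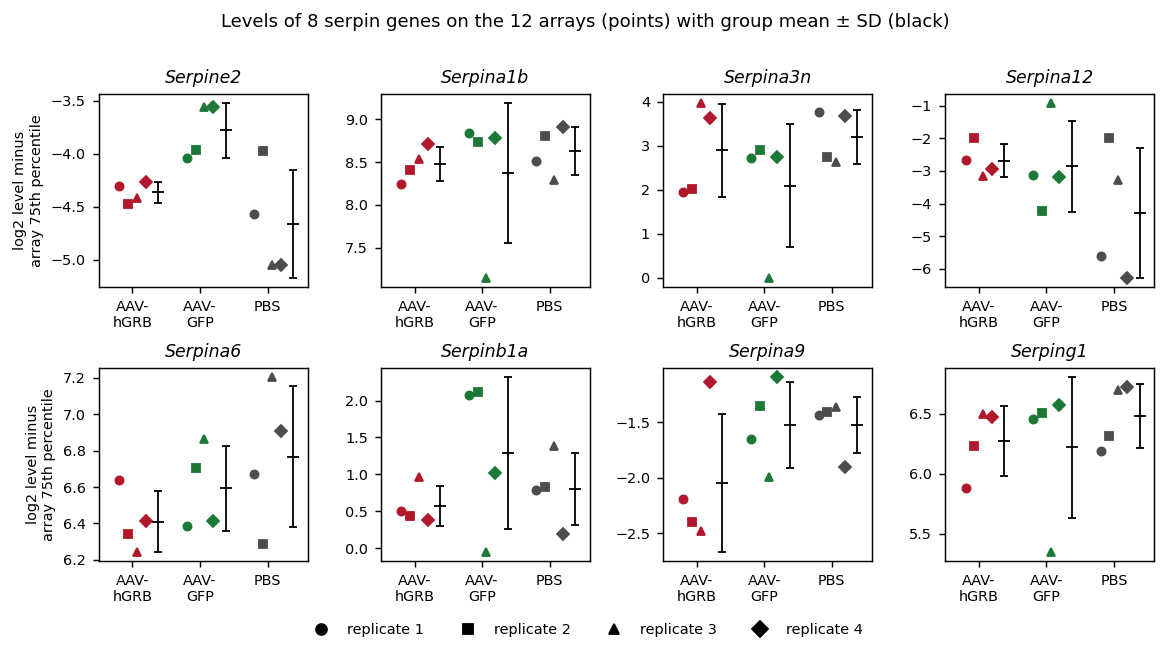
Levels of 8 serpin genes (y axis, log2 scale, relative to the 75th percentile of each array; each panel has its own scale) on the 4 AAV-hGRB, 4 AAV-GFP and 4 PBS arrays (symbols by replicate number), with each group's mean ± SD in black. Serpine2 separates AAV-hGRB (-4.47 to -4.27) from AAV-GFP (-4.04 to -3.55), and AAV-GFP replicate 3 is the lowest point of Serpina1b, Serpina3n and Serping1.

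Among the plasma inhibitors of clade A, the Serpina1 genes are the mouse paralogs for alpha-1-antitrypsin, known as an inhibitor of neutrophil elastase. Which protease each paralog inhibits was not examined. Serpina1b stood at 8.25, 8.40, 8.53 and 8.72 on the AAV-hGRB arrays, at 8.84, 8.73, 7.14 and 8.78 on the AAV-GFP arrays, and at 8.51, 8.81, 8.29 and 8.92 on the PBS arrays. A single array, AAV-GFP replicate 3, was low. Serpina1e was also lowest there (5.94, against 6.65 to 7.86 elsewhere), whereas Serpina1d was at its highest (11.30, against 9.94 to 10.65). The groups overlapped for all 3 paralogs.

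The change in AAV-hGRB against AAV-GFP was 0.10 (95% CI -0.65 to 0.85) for Serpina1b, 0.15 (-0.70 to 1.00) for Serpina1e and -0.33 (-0.94 to 0.28) for Serpina1d. Without AAV-GFP replicate 3 the first 2 turned to -0.31 and -0.24, and Serpina1d moved to -0.08. In AAV-hGRB against PBS the 3 changes were -0.16, -0.20 and 0.00, and in AAV-GFP against PBS -0.26, -0.35 and 0.33. Without the array, AAV-GFP against PBS gave 0.15, 0.04 and 0.08. It therefore set the sign for Serpina1b and Serpina1e in both comparisons with AAV-GFP, and not for Serpina1d.

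The promoters of these paralogs hold an identical stretch, which is shown here. In the RefSeq promoter windows (GRCm38.p6, chromosome 12, minus strand; 250 bases before to 50 after each start), Serpina1a to Serpina1e share the 55 bases below, which end 10, 0 and 62 bases before the annotated starts of Serpina1b, Serpina1d and Serpina1e. They lie at chr12:103738200-103738254, chr12:103773634-103773688 and chr12:103956960-103957014. Capitals mark GTTAAT, the core of the hepatocyte nuclear factor 1 motif.
Serpina1a to Serpina1e promoter: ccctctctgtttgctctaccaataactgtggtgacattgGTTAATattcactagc
GTTAAT on either strand was present in the window of 8.24% of 27025 genes. Of the 25 serpin genes detected on all 12 arrays, 16 had a RefSeq window and 5 of these held it: the 3 paralogs, Serpina3c and Serpina7. It was also present in 3 of the 18 windows of untested serpin genes. A match describes letters in a window and shows no binding.

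The Serpina3 genes are the mouse expansion of antichymotrypsin, an inhibitor of granule proteases that rises in the acute phase response. Serpina3n read 1.95, 2.02, 3.98 and 3.64 on the AAV-hGRB arrays, 2.73, 2.90, -0.01 and 2.75 on the AAV-GFP arrays and 3.78, 2.74, 2.62 and 3.67 on the PBS arrays. AAV-hGRB replicates 1 and 2 were below all PBS arrays, replicate 4 lay within them and replicate 3 above them. The change in AAV-hGRB against AAV-GFP was 0.81 (95% CI -0.65 to 2.27), and 0.11 without AAV-GFP replicate 3. In AAV-GFP against PBS it was -1.11 (-2.57 to 0.35), and -0.41 without that array, while AAV-hGRB against PBS gave -0.31.

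Serpina3k and Serpina3m, abundant in liver, varied less. Serpina3k changed by -0.20 (95% CI -0.98 to 0.57) in AAV-hGRB against AAV-GFP, and its second probe by -0.12. Serpina3m changed by -0.26 (-0.83 to 0.31). AAV-GFP replicate 3 was the lowest array for the first Serpina3k probe (7.88, against 8.26 to 9.44) and for Serpina3m (8.56, against 8.69 to 9.67). Without it the changes were -0.57 and -0.51, with limma adjusted p = 0.661 for both.

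Serpina3g, an intracellular cathepsin inhibitor of activated lymphoid and myeloid cells, and Serpina3f are known to respond to interferon. The 30 interferon-induced genes examined were all above 0 in AAV-hGRB against AAV-GFP, where 43.5% of all tested probes were. Their median change was 1.47, with 0 past the threshold. An unadjusted p under 0.05 was found for 24 of the 30, against 3.35% of all tested probes. Usp18 (2.23) and Irf7 (2.49) had the lowest p among them. Serpina3g changed by 0.18 (95% CI -0.53 to 0.89) and Serpina3f by 0.48 (-0.45 to 1.42), or by 0.24 at its second probe. Without AAV-GFP replicate 3, Serpina3f was at 0.01. The genes of the interferon list ranged from 0.21 to 2.82 in this comparison. In AAV-hGRB against PBS, Serpina3g was at 0.45 (95% CI -0.26 to 1.16; limma adjusted p = 0.944), and the interferon list ranged from 0.53 to 2.88. There 26 of the 30 listed genes had an unadjusted p under 0.05, against 5.84% of all tested probes.

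Serpina6 is corticosteroid-binding globulin, which carries glucocorticoids in plasma. Its levels were 6.64, 6.34, 6.24 and 6.42 on the AAV-hGRB arrays, 6.39, 6.71, 6.87 and 6.41 on the AAV-GFP arrays and 6.67, 6.29, 7.20 and 6.91 on the PBS arrays. The 3 groups overlapped throughout. AAV-hGRB was lower than PBS by 0.36 (change -0.36, 95% CI -0.84 to 0.12; limma adjusted p = 0.916) and differed from AAV-GFP by -0.18 (-0.67 to 0.30). Serpina7, thyroxine-binding globulin, ranged from 1.16 to 3.57 in the AAV-hGRB group alone, and its changes were 0.24 against AAV-GFP (0.03 without AAV-GFP replicate 3) and 0.53 against PBS.

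Serpina12, the adipokine vaspin, had a wide spread, with a pooled within-group SD of 1.43, larger than that of 99.4% of all tested probes. It read -2.68, -1.98, -3.15 and -2.95 on the AAV-hGRB arrays, -3.13, -4.24, -0.92 and -3.18 on the AAV-GFP arrays and -5.61, -2.01, -3.29 and -6.26 on the PBS arrays. PBS replicates 1 and 4 were below all other arrays and were among the 3 on which the probe was not well above background. AAV-hGRB against PBS gave 1.61 (95% CI -0.32 to 3.53; limma adjusted p = 0.895) and AAV-GFP against PBS 1.43 (-0.50 to 3.35; limma adjusted p = 0.999). With normexp background correction these were 0.57 and 0.40. AAV-GFP against PBS gave 0.78 without AAV-GFP replicate 3, its highest array.

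Serpina10, the protein Z-dependent inhibitor of factor Xa, had 2 tested probes that moved apart. In AAV-hGRB against AAV-GFP the brighter gave 0.56 (95% CI -0.66 to 1.78) and the other -0.11 (-0.58 to 0.35). Without AAV-GFP replicate 3 the brighter gave 0.05. Serpina9, or centerin, a serpin of germinal centre B cells, was among the 4 lowest p-values of genes with a negative change. It read -2.19, -2.40, -2.48 and -1.14 on the AAV-hGRB arrays, -1.65, -1.35, -2.00 and -1.10 on the AAV-GFP arrays and -1.43, -1.41, -1.37 and -1.90 on the PBS arrays. AAV-hGRB replicates 1 to 3 were below the other 9 arrays and replicate 4 was near the top. The changes of -0.53 against AAV-GFP and -0.52 against PBS did not pass (limma adjusted p = 0.998 and 0.916).

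The kallistatin pseudogene Serpina4-ps1 ranged from -1.24 on PBS replicate 4 to 2.95 on AAV-GFP replicate 3, with 2.59 on PBS replicate 3, at its brighter probe. Its 2 probes, which overlap, differed by -0.64 to -0.40 on every array, so both read the same pattern. Its change in AAV-hGRB against AAV-GFP was -0.83 (95% CI -2.63 to 0.97), and -0.18 without AAV-GFP replicate 3. Serpina11 had one of the smallest spreads of the family (SD 0.20) and changed by -0.07 (-0.48 to 0.33).

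Several clade B serpins protect cells from their own granule proteases. Serpinb1a, an elastase inhibitor, stood at 0.51, 0.43, 0.97 and 0.38 on the AAV-hGRB arrays, at 2.08, 2.11, -0.06 and 1.01 on the AAV-GFP arrays and at 0.79, 0.83, 1.39 and 0.19 on the PBS arrays. AAV-GFP replicates 1, 2 and 4 were above all AAV-hGRB arrays, and replicate 3 was below them. The change was -0.72 (95% CI -1.66 to 0.23) and -1.16 without that array (limma adjusted p = 0.624). It was 0.49 in AAV-GFP against PBS, and 0.93 without the array.

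Its paralogs Serpinb1b and Serpinb1c followed the same signs in the comparisons that share the AAV-GFP arrays. They were at -0.33 and -0.49 in AAV-hGRB against AAV-GFP (limma adjusted p = 0.998 for both). In AAV-GFP against PBS they were at 0.78 and 0.68 (limma adjusted p = 0.999 for both). In AAV-hGRB against PBS the signs differed, with -0.23 for Serpinb1a, 0.44 for Serpinb1b and 0.19 for Serpinb1c. The Serpinb1b probe was dim, well above background on 9 arrays. Serpinb1a is also abundant in neutrophils. The mean level of the 5 tested of 8 neutrophil markers was -2.96 to -1.92 in AAV-GFP, -2.44 to -1.88 in AAV-hGRB and -1.83 to -1.45 in PBS, with all 8 markers well above background on at least 1 array. By limma 0 of the 5 passed the threshold in any comparison. An unadjusted p under 0.05 was found for 4 of the 5 in AAV-GFP against PBS, against 1.68% of all tested probes. It was found for 2 in AAV-hGRB against AAV-GFP (3.35% of all probes) and 1 in AAV-hGRB against PBS (5.84% of all probes). The part of neutrophil signal in the clade B values was not tested.

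Serpinb9, the inhibitor of granzyme B, changed by -0.16 (95% CI -1.07 to 0.76), or -0.52 without AAV-GFP replicate 3. Gzmb and Gzma, granule proteases of cytotoxic lymphocytes, were at 1.14 and 1.52 without passing the test. Of the 13 tested T cell and NK cell markers, which include both, 11 were above 0 and 2 below. Their median was 0.53 and their range -0.66 to 1.52, so Gzma was the highest. Serpinb6a, a broad intracellular inhibitor, changed by 0.15 (-1.06 to 1.35) and was low on AAV-GFP replicate 3 (-2.58, against -1.59 to 0.36). Without that array its change turned to -0.39. Serpinb6b had one of the lowest p-values of the family, with -0.37 ± 0.21 (SE) in AAV-hGRB against AAV-GFP (limma adjusted p = 0.998). Serpinb9e (0.55) and Serpinb6c (0.39), both dim, had the lowest p among genes with a positive change, ahead of Serpina3n and Serpina3f.

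In AAV-GFP against PBS, Serpinb3c, Serpinb9e and Serpinb6c were at -0.87, -0.64 and -0.51, none past the threshold. Serpinb3c was also at -0.70 in AAV-hGRB against PBS, with its highest level on PBS replicate 1 (-0.89, against -3.91 to -1.93 on the 11 others). Serpinb2, plasminogen activator inhibitor 2, was well above background on 4 arrays and spread from -6.96 to -3.39. Serpinb8 gave -0.10 and -0.35 at its 2 tested probes in AAV-hGRB against AAV-GFP.

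The remaining clades include plasma inhibitors of clotting, fibrinolysis and complement that hepatocytes secrete. Antithrombin, Serpinc1, read 9.20, 8.89, 8.69 and 8.79 at its brighter probe on the AAV-hGRB arrays, 9.08, 9.17, 9.71 and 9.04 on the AAV-GFP arrays and 8.70, 8.92, 9.31 and 9.19 on the PBS arrays. AAV-hGRB replicates 2, 3 and 4 were below all AAV-GFP arrays, and replicate 1 was above 3 of them. The change was -0.36 (95% CI -0.83 to 0.12) at this probe and 0.15 (-0.59 to 0.88) at the upstream probe. These were -0.20 and -0.23 without AAV-GFP replicate 3.

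Heparin cofactor II, Serpind1, had a narrow spread (SD 0.20) and changed by -0.16 (95% CI -0.57 to 0.24). Alpha-2-antiplasmin, Serpinf2, changed by -0.19 (-0.72 to 0.35) and pigment epithelium-derived factor, Serpinf1, which does not inhibit proteases, by -0.27 (-0.65 to 0.11). The upstream Serpinf1 probe gave 0.12, and -0.42 without AAV-GFP replicate 3. Serpinf1 against PBS was -0.27 as well. C1 inhibitor, Serping1, the brake on complement and kinin release, read 5.34 on AAV-GFP replicate 3 and 5.88 to 6.72 elsewhere. Its change was 0.05 (-0.57 to 0.68), and -0.24 without that array.

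Serpinh1, the collagen chaperone HSP47 of the endoplasmic reticulum, marks collagen-making cells more than hepatocytes. It ranged from 1.80 on AAV-GFP replicate 1 to 4.59 on AAV-GFP replicate 3 and changed by -0.14 (95% CI -1.32 to 1.04), which turned to 0.25 without the latter array. It stood at 0.43 in AAV-hGRB against PBS and 0.57 in AAV-GFP against PBS, the latter 0.18 without that array. Stellate cell and fibroblast markers, 12 of 12 tested, had mean levels of 0.15 to 0.97 over the 12 arrays, and 7 were above 0 in AAV-hGRB against AAV-GFP.

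The spread between arrays of one group was wide in part of the family. The median pooled SD of the 42 serpin probes was 0.55, beside 0.45 for all tested probes, with no test. It was 0.17 for the brighter Serpinf1 probe and 1.43 for Serpina12. The plot of this spread sets 41 serpin probes against all 26591.

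**Figure D3:**
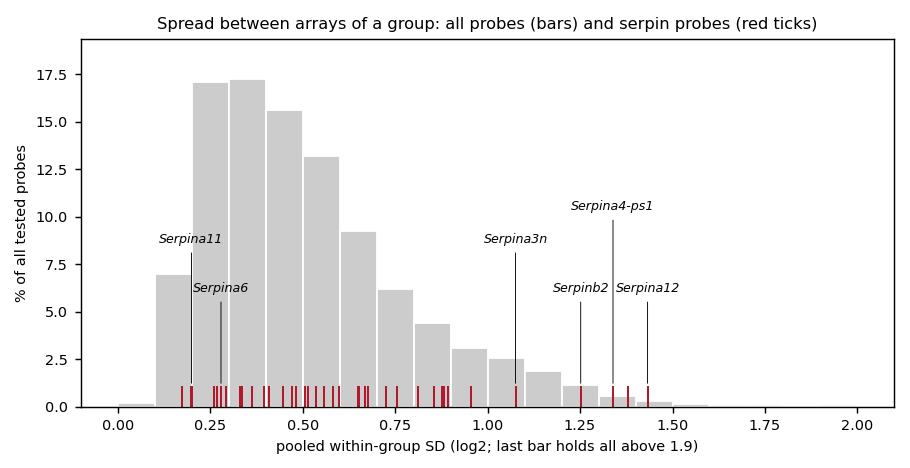
Distribution of the pooled within-group SD (x axis, log2 units; 9 residual degrees of freedom) over the 26591 tested probes, as grey bars in percent of probes, with 41 serpin probes as red ticks and 6 genes named. Serpina12 (1.43) and Serpina4-ps1 (1.34) lie in the far right tail, and Serpina11 (0.20) and Serpina6 (0.28) near the left edge.

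The low serpin values on AAV-GFP replicate 3 depended on the probe. For Serpinc1 the upstream minus the downstream probe was -5.73 on that array and -4.34 to -2.95 on the others. For Serpinf1 it was -5.75, against -4.92 to -3.29. The brighter Serpina10 probe, upstream of the other, gave a difference of -1.44, against -0.16 to 1.75, and the Serpina3k pair 0.57, against 0.85 to 1.62. Serpina3f went the other way, with 0.77 against -0.97 to -0.42. For the first 4 genes the array was thus lower at the upstream probe than its downstream probe would give on the other arrays.

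The same difference was taken over other genes with 2 or more probes, between the outermost, in 4 classes of distance between these. Each gene's own median over the 12 arrays was then subtracted, which was not done for the serpin genes above. Over 330 genes with probes 200 to 500 bases apart, the median of these deviations was -0.35 on AAV-GFP replicate 3 and -0.13 to 0.17 on the other arrays. For that array the median was -0.08 at 501 to 1000 bases (488 genes), -0.04 at 1001 to 2000 (614 genes) and -0.01 at 2001 to 5000 (837 genes). It was the lowest array in the closest class and in no other, while PBS replicate 1 was the highest in all 4.

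Over the 12 arrays, the Serpinc1 difference had Pearson's r = 0.98 and Spearman's rho = 0.90 with the median of the closest class. In the wider classes, in order, r was 0.74, 0.56 and 0.41. For Serpinf1 r was 0.97 (rho = 0.93) in the closest class and 0.83, 0.65 and 0.48 in the others, and for Serpina10 0.86 (rho = 0.71), then 0.63, 0.50 and 0.26. These pairs lie 6999, 5595 and 13174 bases apart on the genome, outside the closest class. The relation was thus strongest with genes whose probes lie much nearer to each other on the genome than theirs. Distances along the transcript were not computed. Without AAV-GFP replicate 3 and PBS replicate 1, r in the closest class was 0.93, 0.92 and 0.76.

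The other 4 serpin genes with 2 tested probes had r from -0.79 (Serpina3f) to 0.64 (Serpina3k) in the closest class. The relation was looked for after the serpin values of AAV-GFP replicate 3 were seen, so these coefficients are a description and no p is given. A slide held at most 3 arrays, too few for a value within one. The part of probe position in the group differences was not tested.

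**Figure D4:**
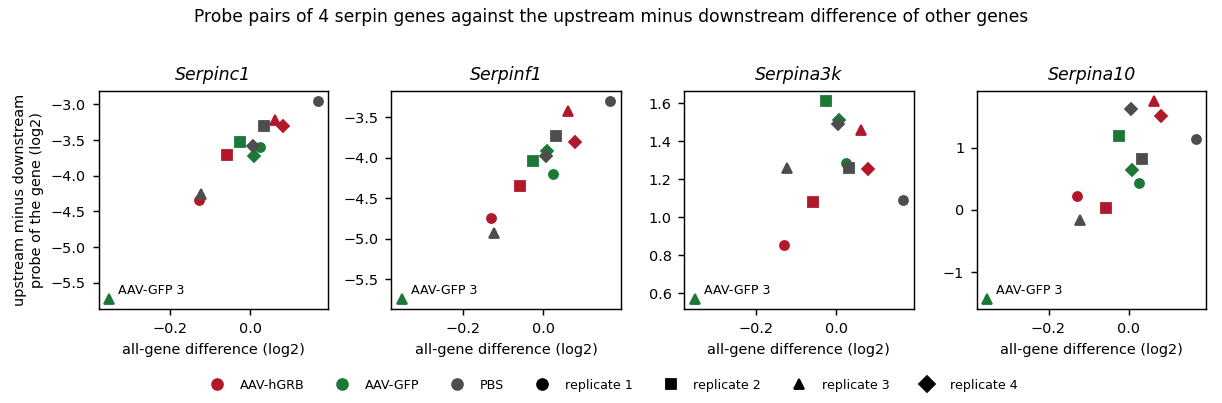
For Serpinc1, Serpinf1, Serpina3k and Serpina10, the upstream minus the downstream probe (y axis, log2, own scale in each panel) on the 12 arrays. The x axis (log2) is the median over 330 other genes with probes 200 to 500 bases apart. For these genes the difference was taken after subtracting each gene's own median over the 12 arrays. Points are coloured by group with symbols by replicate. AAV-GFP replicate 3 is at the lower left of each panel, and the remaining arrays of Serpinc1 and Serpinf1 lie along one line with r = 0.93 and 0.92 once PBS replicate 1 is also left out.

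Without AAV-GFP replicate 3, 0 serpin probes passed the threshold in any comparison. The median change over the serpin probes was -0.17 in AAV-hGRB against AAV-GFP and 0.06 in AAV-GFP against PBS. Of the serpin genes named in each of these comparisons and reported here, 5 of 26 turned sign.

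The proteases that serpins restrain were examined beside them. Of 27 tested target proteases and their zymogens, 9 were above 0 and 18 below in AAV-hGRB against AAV-GFP, with a median of -0.11 and 0 past the threshold. Tmprss6, the hepatic membrane protease matriptase-2, was at -0.50 ± 0.18 (SE) and Masp2, of the lectin pathway of complement, at -0.47 ± 0.20. Prothrombin (F2) was at -0.19 and plasminogen (Plg) at 0.21. Protease inhibitors of other families gave 10 above and 17 below 0 of 27, with a median of -0.16, and changes from -0.66 to 1.20. The metalloprotease inhibitors Timp2 (0.63 ± 0.19) and Timp3 (0.55 ± 0.21) had the lowest p among them, both above 0 where the median was below it. None of these passed.

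Acute phase proteins outside the family, with which Serpina3n and Serpina1 paralogs are usually grouped, gave 11 above and 9 below 0 of 20, with a median of 0.15 and 0 past the threshold. Steap4 (0.84) and Lbp (0.56) had the lowest p. On AAV-GFP replicate 3 their mean level was 4.92, the lowest of the AAV-GFP arrays, and on the other arrays 4.71 to 5.66. Only AAV-hGRB replicate 2 was lower. Macrophage markers were above 0 in 13 of 13 tested, with a median of 0.32 in AAV-hGRB against AAV-GFP and mean levels of 2.24 to 3.31 in AAV-hGRB, 2.17 to 2.86 in AAV-GFP and 1.41 to 2.65 in PBS.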

How the data were processed

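Each of the 12 arrays carried Cy3-labelled cRNA made from 500 ng of total liver RNA, per the labels' protocols. The authors deposited scanner output with one processed intensity per spot, made by Agilent Feature Extraction 9.5.3.1 per the file headers (9.5 per the submitters' processing notes), which subtracts background, with flags for saturation and for signal well above background. The deposited value table equals the processed intensity for 540216 of 540216 values (relative tolerance 1e-06). The array design gives mm7 coordinates. Probes were named through RefSeq accessions where these matched the table of GRCm38.p6 (22951 by systematic name, 131 by another accession) and otherwise by the array design (18092). RefSeq promoter windows are of the same build.

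The log2 of the deposited intensity minus each array's 75th percentile was computed, and spots of a probe were averaged. The 26591 of 41174 probes well above background on at least 4 of 12 arrays entered one limma 3.58.1 fit (R 4.3.3) over the 3 groups with 9 residual degrees of freedom, with two-sided p-values adjusted by Benjamini-Hochberg over the 26591 probes and a threshold of 0.05. The arrays' number limits the precision. Correlations over arrays (SciPy 1.17.1) are descriptions, with no p.

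The members and gene lists were chosen with earlier results of these data known. Named were, in each comparison, any serpin probe past the threshold and otherwise the 4 serpin genes of lowest p in each direction, each serpin gene with groups that do not overlap, a fixed list of liver serpins, and 2 genes of lowest p from each protease, inhibitor, acute phase and interferon list. The proteases Gzmb, Gzma, F2 and Plg were named outside this rule. The brightest probe stands for a gene. The values of 1 serpin gene are not reported here, though counts and medians over the family include it. The alternatives were normexp background, median and quantile scaling, no filter and a filter of 12 arrays, slide as fixed or random block, the replicate number as block, array weights, saturated probes left out, only the groups compared, and each array left out. Leaving out AAV-GFP replicate 3 and PBS replicate 1 together was added after seeing the data. Slides held 1 to 3 arrays, and the correlation within slides was 0.03. Replicate numbers did not pair the samples (correlations of deviations between same-numbered arrays from -0.43 to 0.59).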

Additional observations from a re-analysis of the deposited data

Results flagged for a closer look

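Each of 126 sets of 4 arrays (42 serpin probes in 3 groups) was examined for an array far from the others of its group. A gap past Dixon's critical value was found in 9 of the 126 sets, where chance alone gives about 1 in 20 sets. The same count was not made over all tested probes, so it does not set the serpins apart. AAV-GFP replicate 3, on which 23.8% of all tested probes had their lowest level and 30.1% their highest, accounted for 6 of the 9. It was low for Serpina1b (7.14, others 8.73 to 8.84), Serpina3k (7.88, others 9.26 to 9.44), Serpina3n (-0.0119, others 2.73 to 2.90), the upstream Serpinf1 probe (1.60, others 3.56 to 3.86) and Serping1 (5.34, others 6.45 to 6.57), and high for the dimmer Serpinb8 probe (-3.48, others -4.45 to -4.29). The other 3 were the dimmer Serpina10 probe on AAV-hGRB replicate 2 (1.35, others 0.91 to 0.97), Serpina9 on PBS replicate 4 (-1.90, others -1.43 to -1.37) and Serpinb6c on PBS replicate 3 (-3.89, others -4.55 to -4.51).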

How the results depend on the processing

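The count of serpin probes past the threshold was 0 in each comparison under every alternative run. The count over all probes was 0 too, except with array weights, which called 67 probes in AAV-hGRB against PBS, none a serpin. Leaving out 1 array at a time, the median serpin change ranged from -0.18 to -0.01 in AAV-hGRB against AAV-GFP, -0.06 to 0.06 in AAV-GFP against PBS and -0.23 to -0.06 in AAV-hGRB against PBS. Under the other alternatives on all 12 arrays or on the groups compared the ranges were -0.28 to 0.05, -0.12 to 0.08 and -0.19 to -0.05. The fit with the replicate number as a block changed no call. Every group holds each replicate number, so that block cannot move the serpin medians of -0.12, -0.02 and -0.14. Of 76 values of named serpin genes, 40 turned sign under at least 1 alternative and 36 did not, and the lowest limma adjusted p of any under any alternative was 0.300. Dim probes such as Serpine2 limit what can be measured, since the background correction moves them. Leaving out AAV-GFP replicate 3 and PBS replicate 1 together gave medians of -0.17, -0.01 and -0.16.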
